A study of Homo sapiens with 2 samples.

Results

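DLK1 encodes delta-like non-canonical Notch ligand 1, a single-pass membrane protein with EGF-like repeats that the protease ADAM17 can release from the cell surface. It lacks the DSL domain through which canonical ligands bind Notch receptors, and it is known as preadipocyte factor 1 from its role in holding back fat cell differentiation. The gene is imprinted and expressed from the paternal copy of the 14q32 domain, which also holds the maternally expressed long non-coding RNA MEG3. In the sympathoadrenal lineage it marks chromaffin and other neuroendocrine cells, and it is found in neuroblastoma, a tumour of that lineage.

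SH-SY5Y is a human neuroblastoma line of sympathoadrenal origin. Untreated cells were grown in 2 flasks, here SplitA and SplitB, labelled with 1 hashtag antibody each, pooled and run as 1 droplet-based 3′ RNA library with 1 hashtag library. Both flasks held the same line in the same serum-containing medium, with no agent added, and the sample descriptions give both hashtags the same split name, so the flask names follow the published methods. No comparison of treatments exists in the series, and each flask is 1 culture. As published, both flasks were split from the same starting culture, so they are not independent cultures.

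DLK1 is 1 of the 33538 gene rows of the count table. It was selected on its high variance between cells in an earlier look at the same counts, so its spread is given here as a description and without a test. The table held 2879 cells. A cell was given to a flask when one hashtag count was at least 3 times the other and the other was at most 185, and it was kept when it had 1000 or more genes detected. This left 2094 cells, 899 of SplitA and 1195 of SplitB, while 95 cells had no single flask and 690 fell under the gene minimum. The antibody-borne barcodes that separate the flasks are shown because every flask value below rests on them.
SplitA hashtag: gtcaactctttagcg
SplitB hashtag: tgatggcctattggg
Kept SplitA cells carried a median of 1072 counts of their own hashtag and 70 of the other. The SplitB medians were 1066 and 20.

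The cells kept their sympathoadrenal label. Of 8 sympathoadrenal markers, 6 were found in at least 10% of the cells of each flask, and the summed markers stood at 19.3 and 18.8 per 10000 UMIs in SplitA and SplitB (a UMI is 1 counted RNA molecule). TH, the rate-limiting enzyme of catecholamine synthesis, was among the markers below that share and had 9 UMIs in each flask. Leukocyte and endothelial markers were all at 0, Schwann cell precursor markers summed to 0.0598 and 0.0545 per 10000 UMIs, and fibroblast markers to 0.227 and 0.236. Kept cells held 5852780 UMIs in SplitA and 8066440 in SplitB, with medians of 6063 and 6346 per cell.

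DLK1 (ENSG00000185559) lies on the plus strand of chromosome 14 at 100725705 to 100738224 (GRCh38, GENCODE 44), has 5 exons and overlaps no other annotated gene. The last exon spans 100734149 to 100738224, and MEG3 begins 41.2 kb downstream. Counting was from 3′ ends, so the membrane-bound and the cleavable isoforms of DLK1 cannot be told apart.

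DLK1 was found in nearly every cell and at very unequal levels. SplitA held 15016 DLK1 UMIs, or 25.7 per 10000 (exact Poisson 95% interval 25.2 to 26.1), and SplitB held 21481, or 26.6 (26.3 to 27.0). These intervals cover counting error only, not the spread between cells or cultures. Without the 5% of cells with most UMIs the levels were 25.3 and 25.1, so the order of the flasks turned and no difference between them is stated.

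A DLK1 UMI was seen in 97.0% of SplitA cells (exact binomial 95% interval 95.7 to 98.0) and 96.3% of SplitB cells (95.1 to 97.3). At an equal depth of 2000 UMIs per cell the expected shares were 87.3% and 85.8%. There were 27 SplitA and 44 SplitB cells without a DLK1 UMI, 3.0% and 3.68%. If every cell had held the same proportion of DLK1, counting alone would have left 0.0140% and 0.0112% of cells at 0. No cell type that lacks DLK1 was present to measure free RNA in the droplets, so its part in the shares was not tested.

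The typical cell had few molecules and a minority had very many. The median was 9 DLK1 UMIs per cell in each flask, the 10th percentile was 2 in each, and the 90th was 41 in SplitA and 45 in SplitB, with highest values of 146 and 225. Per 10000 UMIs the medians were 15.9 and 15.7, the 90th percentiles 62.1 and 62.7, and the highest cells 240.1 and 555.8. The SplitB cell at 555.8 was shallow and had 30% or more of its UMIs from mitochondrial genes. The tenth of cells with the most DLK1 UMIs held 39.7% of all DLK1 UMIs in SplitA and 41.5% in SplitB, and the lower-ranked 50% of cells held 13.3% and 12.1%. The counts formed 1 broad hump with a long upper tail and no gap between low and high cells, as the plot of DLK1 UMIs per cell shows.

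**Figure D1:**
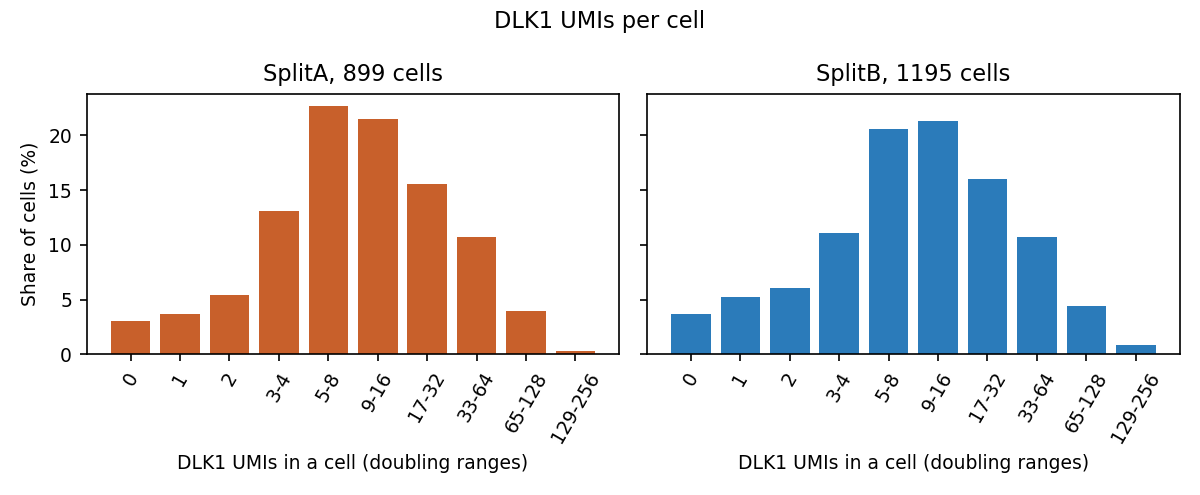
Share of cells (%) by the number of DLK1 UMIs in a cell, in ranges that double in width, for the 899 SplitA and 1195 SplitB cells. The range of 5 to 8 UMIs holds 22.7% and 20.6% of cells, and cells above 128 UMIs make up 0.334% and 0.837%.

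The variance of DLK1 UMIs over cells was 21.5 times the counting variance in SplitA and 25.9 times in SplitB. This ratio grows with depth, and with cells thinned to 2000 UMIs it was 6.68 and 9.18. The coefficient of variation beyond counting was 1.02 and 1.08. Among the 42 SplitA and 44 SplitB genes with a mean count within 1.5-fold of DLK1, the median ratio was 1.99 and 2.21. Only H4C3, a replication-dependent histone gene, stood above DLK1 in each flask, and GNAS came next below it. As DLK1 was selected on its variance in these counts, its high place among these genes follows from that choice.

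The level followed the cell cycle phase in each flask. Phases were called per cell from 43 S and 54 G2/M genes. G1 cells held 35.9 DLK1 per 10000 UMIs in SplitA (35.2 to 36.6, 401 cells) and 38.5 in SplitB (37.8 to 39.1, 532 cells). S cells held 19.3 and 17.3, and G2/M cells held 15.8 and 17.1. On the log2 scale the difference of S from G1 was -0.89 in SplitA and -1.15 in SplitB, and that of G2/M from G1 was -1.18 and -1.17. G1 was highest in each flask, and S lay above G2/M in SplitA whereas they were close in SplitB.

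Single cells overlapped widely between phases. The median cell in G1 had 24.2 and 25.8 DLK1 per 10000 UMIs, against 14.6 and 11.6 in S and 11.3 and 10.9 in G2/M. Depth ran the other way, with median UMIs per cell of 5799 and 6166 in G1 and 7171 and 6968 in G2/M. With phases called on cells thinned to 2000 UMIs, the S to G1 difference was smaller, at -0.52 in SplitA and -0.81 in SplitB. With cells ranked by DLK1 into 4 equal groups, the share of G1 cells went from 31.1% to 36.4%, 41.3% and 69.6% in SplitA and from 27.1% to 32.8%, 49.5% and 68.8% in SplitB. The step to the highest group was the widest in SplitA, and the 2 upper steps were of like size in SplitB. Over all kept cells, r of log DLK1 with the S score was -0.19 and -0.26, and with the G2/M score -0.25 and -0.24. These points share a library and a depth per cell.

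DLK1 was higher in the cells with a high mitochondrial share of UMIs, a share that is high in stressed or leaking cells. Mitochondrial UMIs shrink the rest of a cell's total, so DLK1 was set over UMIs of nuclear genes here. Cells under a 15% mitochondrial share held 28.0 DLK1 per 10000 nuclear-gene UMIs in SplitA and 28.7 in SplitB. Cells at 15% or more held 37.9 (34.9 to 41.0, 70 cells) and 47.6 (45 to 50.4, 104 cells). The median cell stood at 16.7 under the limit in each flask and at 32.1 and 33.4 above it. On the log2 scale the mean difference of the flasks was 0.58, and it was 0.91 when cells with 300 or more genes were kept. Over all UMIs the same cells differed less, with 25.5 against 28.5 in SplitA and 26.2 against 35.3 in SplitB. Cells at 15% or more were shallow, with a median of 2704 and 2837 UMIs against 6329 and 6579, and the part of depth in the difference was not tested. Fewer of them were called G1, 16 of 70 and 25 of 104 cells against 385 of 829 and 507 of 1091. G1 was the phase with most DLK1, and the part of phase in the difference was not tested. With phases called on thinned cells, the S to G1 difference in DLK1 was smaller in each flask, as given above. How far depth shaped the phase calls of the cells at 15% or more was not tested.

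DLK1 did not rise steadily with the share. SplitB cells under a 5% share (23 cells) held 67.5, above the 27.6 of its cells between 5% and 10%. Their median cells stood at 43.8 and 15.9, and 1 cell held 225 of the 895 DLK1 UMIs under 5%. SplitA cells under 5% held 35.3 but numbered 10, and 1 of them held 111 of their 210 DLK1 UMIs. The median SplitA cell under 5% stood at 15.5, against 16.4 between 5% and 10%. At 30% or more the pooled levels were 39.2 (17 cells) and 61.8 (44 cells), whereas the median cells stood at 32.9 and 31.9. In SplitB the top cell alone held 151 of the 512 DLK1 UMIs of that range, and of the 1207 at 15% or more. Across cells r of log DLK1 with the mitochondrial share was 0.060 and 0.053. The GAL level did not rise with DLK1 across the 15% limit: it went from 13.5 to 6.77 per 10000 nuclear-gene UMIs in SplitA and from 14.7 to 12.2 in SplitB. At 30% or more GAL stood at 4.86 in SplitA and 15.1 in SplitB. Within the cells at 15% or more, r of DLK1 with GAL was 0.30 and 0.33.

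**Figure D2:**
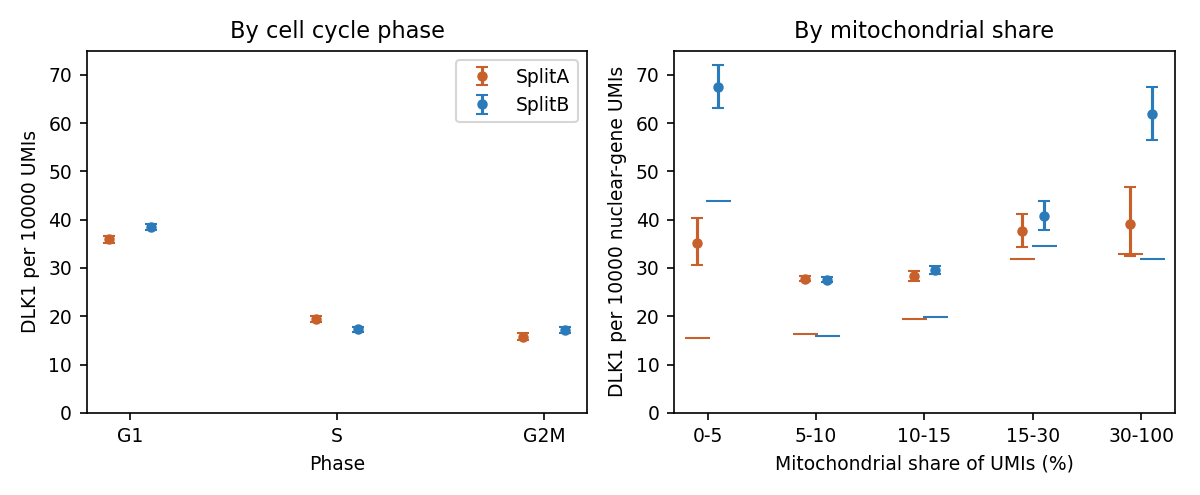
Left, DLK1 per 10000 UMIs by phase; right, DLK1 per 10000 nuclear-gene UMIs by mitochondrial share (%), for SplitA and SplitB. Points are summed counts with exact Poisson 95% intervals, and horizontal dashes in the right panel are medians over cells. G1 is highest in each flask, and the pooled level lies above the median in every range of the share.

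GAL encodes galanin, a neuropeptide of neuroendocrine cells, and lies on chromosome 11 at 68683779 to 68691175. DLK1 and GAL were correlated over the cells of each flask, with Pearson r 0.46 over 899 SplitA cells and 0.45 over 1195 SplitB cells, and Spearman rho 0.43 and 0.46. Both are descriptions over cells of 1 library each scaled by its own depth. The relation was present in every phase: r was 0.52 and 0.48 in G1, 0.33 and 0.30 in S, and 0.37 and 0.42 in G2/M. With cells split by UMIs into 4 equal groups, r ran from 0.30 to 0.57 in SplitA and from 0.38 to 0.56 in SplitB, lowest in the shallowest group. With cells thinned to 2000 UMIs it was 0.34 and 0.37.

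The rise in DLK1 was concentrated in the cells with most GAL. With cells split by GAL into 4 equal groups, lowest first, DLK1 per 10000 UMIs was 13.8, 16.5, 20.8 and 47.3 in SplitA and 14.9, 17, 22.9 and 46.3 in SplitB. Cells with no GAL UMI (146 and 185 cells) still held 15.4 and 17.8. Their median depth was 4471.5 and 4439 UMIs, against 6063 and 6346 in all kept cells. The part of depth in their lack of GAL was not tested. Of the cells with most DLK1 in each flask (225 and 299 cells, the upper 25%), 56.9% and 53.8% were also in the upper 25% for GAL. A further 25.3% and 26.1% had GAL at or below its median, so many DLK1-high cells were not GAL-high cells. With GNAS held constant, the DLK1 and GAL partial correlation was 0.26 in each flask.

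**Figure D3:**
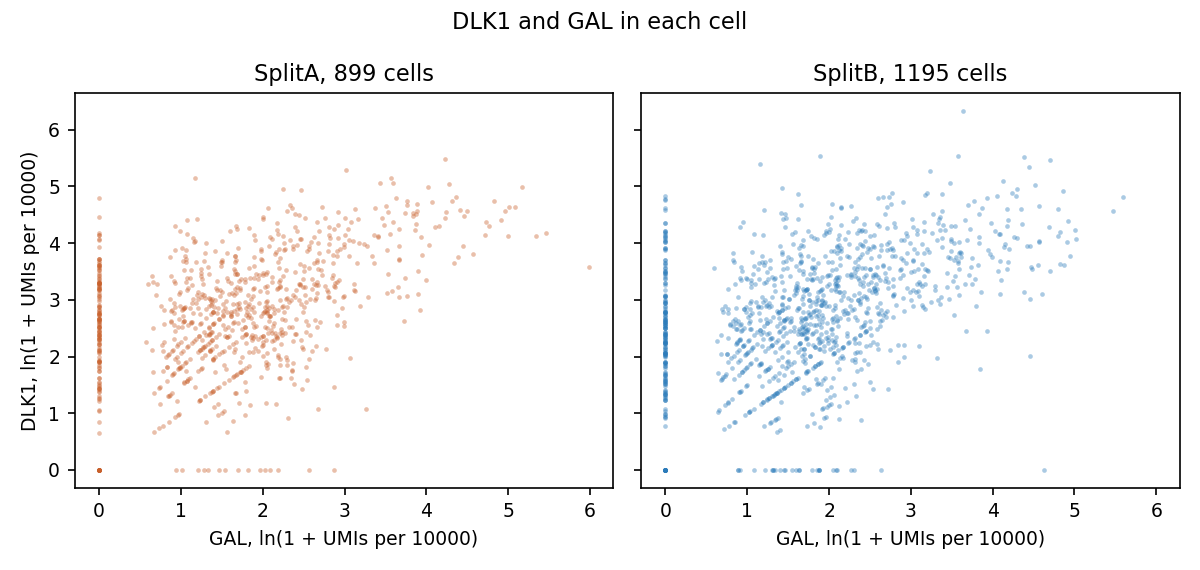
DLK1 against GAL in each cell, both as ln(1 + UMIs per 10000), for SplitA (899 cells) and SplitB (1195 cells). Pearson r is 0.46 and 0.45; cells without a GAL UMI form the column at 0, and the cells with most GAL lie mostly high in DLK1.

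To find the genes that vary with DLK1, r with log DLK1 was computed within each flask for the 5190 genes found in at least 10% of the cells of each flask. Of these, 167 (3.22%) had r of 0.1 or more in each flask and 132 (2.54%) had r of -0.1 or less in each. These counts depend on which cells are kept: a gene minimum of 300 left 85 genes past 0.1, a minimum of 1500 gave 270 and 215, and holding GAL constant left 83 past 0.1. In SplitA alone they were 289 and 237, and in SplitB alone 302 and 223. The values of the 5190 genes were correlated between the flasks, with r 0.77 across genes, which are not independent replicates. Of the 20 genes with highest r in SplitA, 15 were among the 20 highest in SplitB. Of the 526 genes past 0.1 in either direction in SplitA, 0 were past it with the other sign in SplitB.

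GNAS headed the list in each flask, with r 0.61 in SplitA and 0.61 in SplitB. It encodes the Gs-alpha subunit that couples receptors to adenylyl cyclase, from an imprinted locus on chromosome 20 at 58839718 to 58911192 whose other products cannot be told apart by 3′ counting. With GAL held constant, its partial correlation with DLK1 was 0.50 and 0.52, and 68.9% of DLK1-high cells in each flask were also in the upper 25% for GNAS. RAMP1, a receptor partner for calcitonin gene-related peptide, had r 0.38 and 0.36, and RGS5, a regulator of G-protein signalling, had 0.32 and 0.33.

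CHGB and CHGA, granins of dense-core secretory granules, had r 0.40 and 0.38 for CHGB, and 0.39 and 0.35 for CHGA. CYB561, an electron carrier of the chromaffin granule membrane, had 0.25 and 0.22. DDC, which makes dopamine, had 0.34 and 0.33, and SLC18A1, the vesicular monoamine transporter of chromaffin cells, had 0.25 and 0.21.

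S100A11, a calcium-binding protein, had r 0.46 and 0.40 although it was found in only 15.9% and 17.3% of cells, and S100A6 had 0.36 and 0.37. VIM, the intermediate filament vimentin, had 0.32 and 0.34, LGALS1, galectin 1, had 0.27 and 0.28, and HSPB1, a small heat shock protein, had 0.30 and 0.31. TFPI2, a protease inhibitor, had 0.25 and 0.24. CDKN1C, an imprinted inhibitor of cyclin-dependent kinases on chromosome 11, had 0.24 and 0.28. The others were MT-ND5 (0.26 and 0.24), PRCD (0.25 and 0.23), EVA1B (0.24 and 0.15) and MDK, the growth factor midkine (0.26 and 0.15), where the flasks were farthest apart. In the 450 SplitA cells at or below the DLK1 median, TFPI2 had 39 UMIs and EVA1B 44. Both were thus in under 10% of those cells, and met the 10% limit in SplitA only through cells with more DLK1.

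The genes with lowest r were of another kind. PTMA, prothymosin alpha, had -0.38 and -0.36, the ribosomal protein gene RPS7 -0.28 and -0.26, and the ribosomal protein paralog RPL22L1 -0.28 and -0.30. H2AZ1, CENPF, HMGB2, DEK and HMGB1, chromatin and mitosis genes, ran between -0.255 and -0.17 over both flasks. NFIB, a transcription factor, had -0.24 and -0.22, and YBX1, an RNA-binding protein, -0.22 and -0.19. With depth, mitochondrial share and both cycle scores held constant, HMGB2 was at -0.025 and -0.011 and CENPF at -0.091 and -0.019. Both are among the genes of the G2/M score held constant, so their fall towards 0 is partly built in. In the same setting H2AZ1 was at -0.087 and -0.011, DEK at -0.116 and -0.037 and HMGB1 at -0.065 and -0.033. PTMA was at -0.29 and -0.27, RPL22L1 at -0.25 and -0.28 and RPS7 at -0.35 and -0.33.

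**Figure D4:**
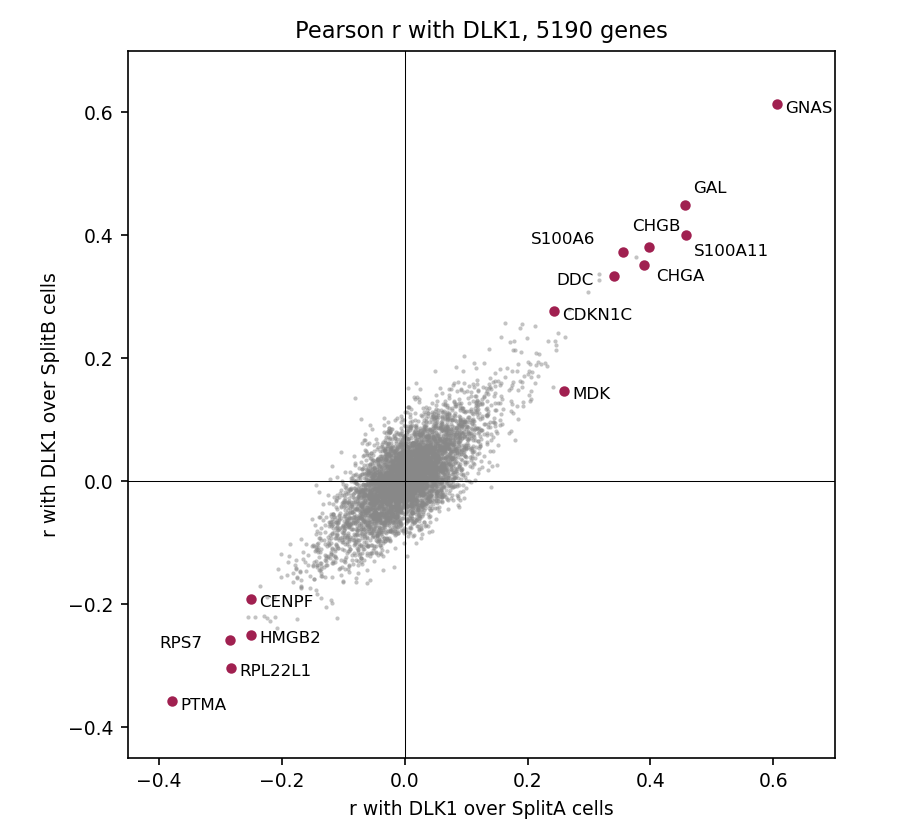
Pearson r with DLK1 over SplitA cells (x axis) and SplitB cells (y axis); each point is 1 of 5190 genes and 14 named genes are in red. GNAS lies farthest out at 0.61 in each flask and PTMA lowest at -0.38 and -0.36; most genes lie near 0.

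The size of these differences was read by summing cells. DLK1-high cells were the upper 25% of each flask, above 32.2 DLK1 per 10000 UMIs in SplitA and 34.1 in SplitB, and DLK1-low cells were those at or below the median (450 and 598 cells). The class is a cut through a continuous range, with 45 and 70 cells within 10% of the cut. Levels are counts per 1000000 UMIs (CPM) over the summed cells. A gene passed the fold rule when its log2 difference was at least 0.32 in each flask in the same direction. Of the 5190 genes, 715 (13.8%) were higher in DLK1-high cells by this rule and 544 (10.5%) lower, and the median over all genes was 0.03 on the log2 scale. Depth was close, with medians of 5932 and 6280 UMIs in SplitA and 6207 and 6540 in SplitB, but G1 cells made up 69.3% against 33.8% in SplitA and 68.9% against 29.9% in SplitB. With both classes drawn again among G1 cells alone, 649 genes were higher and 462 lower by the same rule. Both classes were taken within each flask and cells are not replicates, so no test is given.

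GAL stood at 3108 CPM in DLK1-high and 427 CPM in DLK1-low SplitA cells, and at 2981 and 454 CPM in SplitB. GNAS stood at 4211 against 882 CPM and 4029 against 826 CPM. CHGB was at 545 against 46.2 CPM and 471 against 47.5 CPM, differences of 3.56 and 3.31 on the log2 scale. Among the genes named here, S100A11 had the widest gap, at 301 against 5.90 CPM (17 UMIs in the low cells, interval 3.44 to 9.45) and 340.2 against 10.2 CPM (40 UMIs, 7.30 to 13.9). It was found in 44.9% of DLK1-high but 3.11% of DLK1-low SplitA cells, and in 44.1% and 5.02% in SplitB, so it met the 10% limit on detection only through cells where it is high. PTMA went the other way, at 1430 against 2671 CPM in SplitA and 1531 against 2739 CPM in SplitB.

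Notch pathway genes other than DLK1 were mostly too sparse to follow. Of the other ligands only DLL3 was tested, and it was on opposite sides of 0 in the flasks (0.11 and -0.36 on the log2 scale). DLK2, the closest relative of DLK1, had 8 and 24 UMIs. None of the 4 Notch receptors reached 10% of the cells in each flask: NOTCH4 was in 9.79% and 10.5% of cells and NOTCH1 had 3 and 6 UMIs. Of 5 tested genes that cleave Notch or its ligands, 2 passed the fold rule upwards and 0 downwards, with a median of 0.52 (0.25 without ADAM10, which was in under 10% of the DLK1-low cells of at least 1 flask). Those were PSENEN, a gamma-secretase subunit (0.69 and 0.53), and the protease ADAM10 (0.56 and 0.48). ADAM17, the protease that sheds DLK1, had 0.18 and -0.51. Of 4 tested modulators and nuclear partners 0 were higher and 1 was lower, the co-activator MAML3 (-0.64 and -0.43). None of the 3 tested targets, HES4, HES6 and HEY1, passed in either direction. Over all tested genes 13.8% were higher and 10.5% lower, and each of these lists held few genes.

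Most genes listed near DLK1 on 14q32 were too sparse to follow: 9 of 14 were not tested. MEG3 had 2 and 6 UMIs in SplitA and SplitB, RTL1 had 15 and 21, and DIO3, which inactivates thyroid hormone, had 23 and 23. Of 5 tested neighbours 2 were higher and 0 lower, with a median of 0.28: PPP2R5C, a phosphatase subunit (0.46 and 0.52), and the mitochondrial carrier SLC25A29 (0.32 and 0.65), which was just past the limit in SplitA. Of 7 tested imprinted genes elsewhere in the genome, 3 were higher and 0 lower, namely GNAS (2.25 and 2.29), CDKN1C (1.71 and 1.86) and KCNQ1OT1 (1.12 and 1.04). CDKN1C and KCNQ1OT1 belong to one imprinted domain. SNRPN, NNAT, PEG10 and SGCE did not pass, and their log2 differences lay between -0.46 and 0.21. Both lists were short, and the shares over all tested genes were 13.8% higher and 10.5% lower.

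Among granins and neuropeptides, 7 of 8 tested members were higher and 0 lower, with a median of 1.24 on the log2 scale against 0.03 for all genes. SCG2 had 1.24 and 1.64, VGF 1.07 and 1.02, NPY, neuropeptide Y, 0.64 and 0.65, and CPE, carboxypeptidase E, 0.88 and 0.62. SCG3 was the exception (0.08 and -0.04). Of 11 tested adrenergic genes 4 were higher. By the same rule 13.8% of all tested genes were higher and 10.5% lower. DDC (2.43 and 2.64), SLC18A1 (2.29 and 1.80) and DBH, which makes noradrenaline (1.02 and 1.08), were higher along with the transcription factor HAND2 (0.49 and 0.50).

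Of 7 tested mesenchymal genes 6 were higher and 0 lower, with a median of 1.53. For this list and the hypoxia list below, the shares over all tested genes were 13.8% higher and 10.5% lower. Without S100A11, which met the detection limit only through DLK1-high cells, 5 of 6 were higher and the median was 1.24. The higher genes were VIM, S100A6, S100A11, ANXA2, LGALS1 and TIMP1, and SPARC was on opposite sides of 0 (-0.26 and 0.55). The defining mesenchymal factor PRRX1 was at 0 in each flask, FN1 had 8 and 19 UMIs and YAP1 had 1 and 2. Fibroblast markers were low as given above, and their part in the mesenchymal values was not tested. Of 6 tested hypoxia genes 3 were higher and 0 lower: VEGFA (1.26 and 1.5), BNIP3 (0.62 and 0.51) and PGK1 (0.38 and 0.62). VEGFA was in under 10% of the DLK1-low cells of at least 1 flask, and 2 of the 4 members above that share in each flask were higher.

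All 12 tested proliferation genes were lower and 0 higher, with a median of -1.0, from MKI67 (-1.20 and -1.16) and TOP2A (-1.38 and -1.15) to TYMS (-0.44 and -0.60). Of these, 10 are also among the genes that call the phases, so their values and the G1 share of DLK1-high cells are not independent. Of 9 tested neuronal maturation genes 1 was higher, the synaptic vesicle sensor SYT1 (0.67 and 0.56), and 2 were lower, GAP43 (-0.53 and -0.49) and ELAVL4 (-0.45 and -0.46). Over all genes the shares were 13.8% higher and 10.5% lower. Of 5 tested stress and dissociation genes 3 were higher and 0 lower: FOS (0.79 and 0.83), EGR1 (1.01 and 0.96) and CDKN1A (0.73 and 0.86). EGR1 and CDKN1A were in under 10% of the DLK1-low cells of at least 1 flask, and 1 of the other 3 members was higher.

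**Figure D5:**
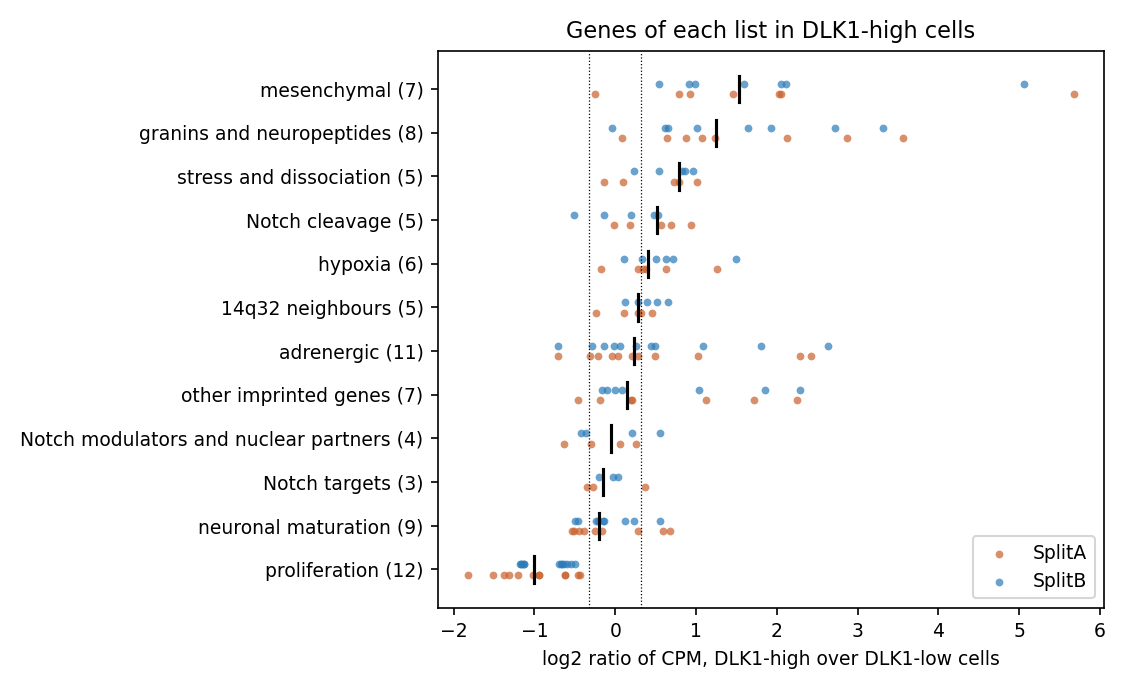
log2 ratio of CPM in DLK1-high over DLK1-low cells; each point is 1 gene in 1 flask, the number of tested genes follows each list name, bars are list medians and dotted lines mark a log2 ratio of 0.32 in each direction. Mesenchymal and granin genes lie mostly to the right (medians 1.53 and 1.24) and all 12 proliferation genes to the left (median -1.0).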

How the data were processed

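Untreated SH-SY5Y cells of 2 flasks were hashtagged, pooled and sequenced as 1 RNA library and 1 hashtag library. The authors deposited raw UMI counts per gene and cell; per the submitters' processing notes STAR 2.7 and Cell Ranger 4.0.0 were used on GRCh38. No per-flask replicate exists, so no test was run; cells were summed by flask. Phases came from Seurat 5.3.0 under R 4.3.3; the rest was computed with scipy 1.17.1 and pandas 2.3.3 under Python 3.11.15. Log values were ln(1 + UMIs per 10000). Exact 95% Poisson and binomial intervals cover counting error only. Hashtags find only doublets across flasks; doublets within a flask were not removed, and an alternative left out the 5% of cells with most UMIs. Genes were tested when found in 10% of the cells of each flask. The text names the 20 highest and 10 lowest r in SplitA and members of chosen lists. DLK1 and the lists were chosen with earlier results of these data known. The steps were tested on simulated data, and 108 planned and 8 added alternatives were tried. Some members of the adrenergic and marker lists are not reported here.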

Additional observations from a re-analysis of the deposited data

Results flagged for a closer look

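DLK1 was also counted in cells outside the kept set, which enter the main comparisons nowhere and, for those under 1000 genes, only the alternative with a lower gene minimum. The limit beside each level is what a count of 0 would allow. In cells under 1000 genes it stood at 38.6 per 10000 UMIs in SplitA (280 cells, 1599 DLK1 UMIs, limit 0.0723) and at 39.9 in SplitB (410 cells, 2284 UMIs, limit 0.0524). In the 73 cells with 1000 or more genes and no single flask it stood at 24.1 (1391 UMIs, limit 0.0519). Kept cells stood at 25.7 and 26.6. Cells under 1000 genes were shallow, with medians of 1460.5 and 1355 UMIs. Their median mitochondrial share was 32.6% and 36.7%, against 8.6% and 8.8% in kept cells. All of these levels are over UMIs of all genes, and the part of depth and mitochondrial share in them was not tested.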

How the results depend on the processing

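Levels, shares, ratios and r are means of the flasks and are given here when they shifted by more than 1 SD between the flasks, which is narrow with 2 of them; counts of genes are given when they changed by over 1.5 times. No value changed sign. A gene minimum of 300 gave a level of 27.0, a share of 95%, G2/M over G1 of -1.08, a high-mitochondrial log2 difference of 0.91, r with GAL of 0.33 and 85 genes with r of 0.1 or more. A minimum of 1500 gave a share of 98.0%, r with GAL of 0.50, and 270 and 215 genes past 0.1 and -0.1. A hashtag limit of 100 gave G2/M over G1 of -1.20, and a mitochondrial share under 15% gave -1.22 with r of 0.48. Without the 5% of cells with most UMIs the level was 25.2 and r 0.44; over nuclear genes they were 28.8 and 0.44, and the mitochondrial difference over all UMIs was 0.29. Thinned to 2000 UMIs, the share was 87.1%, the variance ratio 7.93 and r 0.35; with phases called on thinned cells S and G2/M over G1 were -0.66 and -1.08. r with GAL was 0.45 by rank, 0.43 as a partial correlation and 0.44 without the 1% of cells with most DLK1. Taking the 10% of cells with most DLK1 gave 855 lower genes, and genes in 5% of cells gave 1140 higher and 863 lower. Chosen after seeing the data, G1 cells alone gave r of 0.50, holding GAL constant left 83 genes past 0.1, and limits of 0.2 left 22 and 11. Needing only 1 flask, the counts ranged from 289 to 302 past 0.1, 223 to 237 past -0.1, 1156 higher in each and 887 to 981 lower. Shallow cells limit every value per cell.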

Other observations

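Ribosomal protein genes, picked by a symbol of RPL or RPS and a number, leaned away from DLK1 in small steps. The symbols take in paralogs such as RPL22L1 and leave out the RPLP genes. Of 84 tested, 33 had r of -0.1 or less in each flask and 0 had r of 0.1 or more, against 2.54% and 3.22% of all tested genes. By fold 2 were lower, RPL22L1 among them, and 0 higher, against 10.5% and 13.8% of all genes, with a median of -0.09 on the log2 scale. Counting noise draws r towards 0 in sparse genes, and the r shares among genes as abundant as these were not computed. Of 12 mitochondrially encoded genes 1 passed the fold rule upwards and 0 downwards, against 13.8% and 10.5% of all genes. By r, 2 of the 12 were at 0.1 or more and 1 at -0.1 or less in each flask, against 3.22% and 2.54% of all genes. GAPDH, a glycolytic enzyme often used as a reference gene, had r of 0.18 and 0.23 with DLK1 and log2 differences of 0.33 and 0.44.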
